A study of Mus musculus with 8 samples.

Results

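The genes described here are 10 genes of prohormone processing and of the dense core secretory granule, chosen by name for their known roles out of the 55890 genes in the count table. They are the convertases Pcsk1 and Pcsk2, the convertase partners Pcsk1n and Scg5, the trimming and amidating enzymes Cpe and Pam, and the granins Chga, Chgb, Scg2 and Scg3. The hypothalamus of female mice aged 16 weeks was sequenced in 8 libraries, 4 from POMC-C451Af/f mice and 4 from controls, and each library was a pool of RNA from 2 animals. POMC-C451Af/f mice were made by crossing POMC-Cre mice with mice that carry a floxed C451A form of Esr1, the gene of estrogen receptor alpha, so that the membrane-initiated part of receptor signaling was lost where the Pomc promoter had driven Cre. The paper describes the controls as homozygous littermates with the floxed allele, the sample labels call them wildtype, and neither description gives them Cre. The comparison asked how the hypothalamic transcriptome differed between the genotypes. Cells without Cre were sequenced together with the targeted neurons, and pools of paired animals vary less than single animals would.

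The total estimated count was between 36095253 and 48942116 per pool. All 10 members passed the filter on low counts, and their estimated counts ran from 2722 (Pcsk1) to 94122 (Cpe) in a single pool. Together they held between 0.559% and 0.603% of all counts of a pool. The mutated gene, Esr1, was counted at 11.6, 12.2, 9.99 and 10.9 CPM (read counts relative to the TMM-scaled library size) in POMC-C451Af/f replicates 1 to 4 and at 12.3, 12.8, 11.6 and 16.0 CPM in control replicates 1 to 4. Its log2 fold change was -0.23 (95% interval -0.46 to -0.0047, edgeR unadjusted p = 0.0462, adjusted p = 0.878), and it ran from -0.29 to -0.13 over the alternative fits. The groups overlapped, and gene counts do not tell the mutated transcript from the intact one, so the genotype could not be checked here.

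Some libraries stood apart in markers of neighbouring tissue. The summed level of 10 pituitary markers reached 1458 CPM in control replicate 1, whereas no other pool exceeded 227 CPM and the lowest was at 19.2 CPM. Of these markers 6 were abundant enough to be tested, the most abundant per kb was Prl, and Lhb and Ghrhr had no count in some pools. The summed level of 8 markers of midbrain dopamine neurons was 489 CPM in POMC-C451Af/f replicate 3 and 360 CPM in POMC-C451Af/f replicate 4, followed by 309 CPM in POMC-C451Af/f replicate 1, and lay between 192 and 249 CPM in the remaining pools. All 8 were tested and had counts in every pool, and the most abundant per kb was Th. The 9 hypothalamus markers, led by Pmch, were counted in every pool, with sums from 801 CPM in POMC-C451Af/f replicate 3 to 1559 CPM in control replicate 1.

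Neuropeptides and peptide hormones are made as longer prohormones that are sorted into dense core granules and cut there. Prohormone convertases cut at pairs of basic residues, a carboxypeptidase trims the exposed basic residues, and an amidating enzyme caps many peptides at their C-terminal end. Granins aggregate with the cargo inside the granule and help to form it. In the hypothalamus this route yields alpha-MSH and beta-endorphin from the Pomc precursor as well as many other neuropeptides, and most peptidergic neurons share its enzymes. In bulk tissue, fewer cells of a type and less RNA per cell cannot be told apart.

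Levels of the members were compared with each other as CPM per kb of merged exons. Cpe was the highest at 739 ± 32.4 CPM per kb (SD, n = 8 pools). Pcsk1n at 436 ± 29.9 and Scg2 at 431 ± 30.1 CPM per kb came next, and their ranges over the pools overlapped. Scg5 at 132 ± 5.17, Chgb at 120 ± 5.89 and Chga at 112 ± 4.34 CPM per kb formed a middle group in which each overlapped its neighbour. Scg3 followed at 90.9 ± 2.29 CPM per kb and overlapped neither neighbour. Pcsk2 at 34.5 ± 2.25 and Pam at 30.6 ± 1.81 CPM per kb overlapped, and Pcsk1 was the lowest at 15.5 ± 1.06 CPM per kb. The place of a gene in this order depended on the length used, since 6 of the 10 members kept their rank with the longest transcript and 3 with the median transcript length, under which Pam moved to the second place at 513 CPM per kb. Among all tested genes with a known length, the members lay between the percentile 82.3 (Pcsk1) and the percentile 99.9 (Cpe) of CPM per kb.

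**Figure D1:**
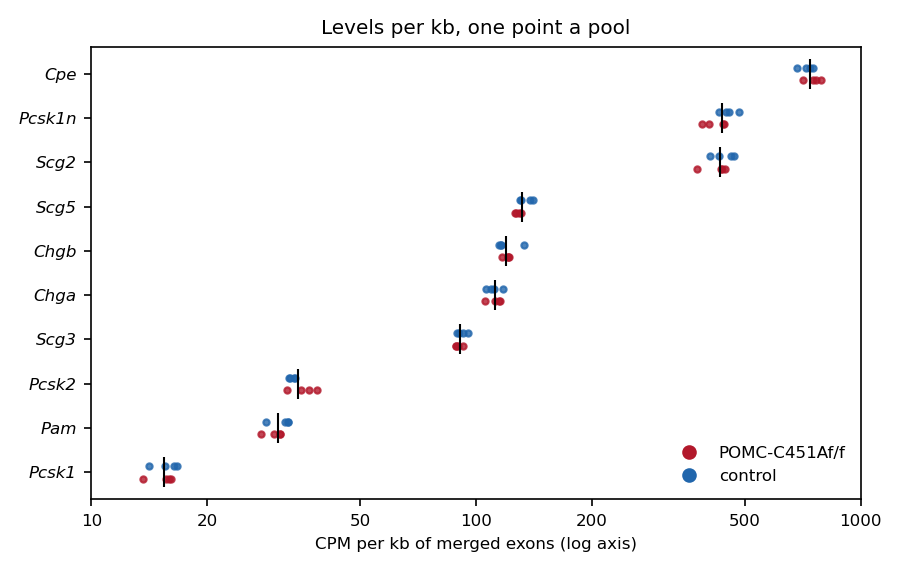
Level of each member in CPM per kb of merged exons on a log axis, with a point for each of the 8 pools and a black bar at the mean over the pools. Cpe (739 CPM per kb) stands at the top and Pcsk1 (15.5 CPM per kb) at the bottom, and the points of the genotypes lie together for every gene.

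The promoters of these genes were searched because several of them are known to respond to cAMP. RefSeq windows on GRCm38.p6, from 250 bases before to 50 bases after the start site, were given for 9 of the 10 members. Cpe had none. The full cAMP response element TGACGTCA, which reads the same on both strands, was found in the windows of 3 members, Pcsk1, Scg2 and Chgb, and in 1.79% of all 32851 windows. Only these exact letters were searched. Near matches, such as the TGACGTAA in the window of Chga, were not counted, so a window without the full element may still hold a variant. The full estrogen response element, its arms GGTCA and TGACC separated by 3 bases of any kind, was found in no member window and in 0.07% of all windows. The windows that held the cAMP element are printed 5′ to 3′ with the element in capitals, because it lies at nearly the same distance from the start site in each. That of Pcsk1 is chr13:75089607-75089906 on the plus strand, that of Scg2 chr1:79439977-79440276 on the minus strand and that of Chgb chr2:132781392-132781691 on the plus strand.
Pcsk1: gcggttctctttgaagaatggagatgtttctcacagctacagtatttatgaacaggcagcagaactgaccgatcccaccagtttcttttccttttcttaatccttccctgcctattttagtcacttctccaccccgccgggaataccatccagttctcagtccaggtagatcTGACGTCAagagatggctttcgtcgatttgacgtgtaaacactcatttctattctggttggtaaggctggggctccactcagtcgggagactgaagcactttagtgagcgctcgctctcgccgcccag
Scg2: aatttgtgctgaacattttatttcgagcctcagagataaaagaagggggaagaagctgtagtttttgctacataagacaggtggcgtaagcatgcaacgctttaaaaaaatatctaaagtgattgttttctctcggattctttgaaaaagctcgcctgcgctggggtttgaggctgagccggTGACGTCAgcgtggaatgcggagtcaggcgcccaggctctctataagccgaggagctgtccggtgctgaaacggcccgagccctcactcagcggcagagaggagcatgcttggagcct
Chgb: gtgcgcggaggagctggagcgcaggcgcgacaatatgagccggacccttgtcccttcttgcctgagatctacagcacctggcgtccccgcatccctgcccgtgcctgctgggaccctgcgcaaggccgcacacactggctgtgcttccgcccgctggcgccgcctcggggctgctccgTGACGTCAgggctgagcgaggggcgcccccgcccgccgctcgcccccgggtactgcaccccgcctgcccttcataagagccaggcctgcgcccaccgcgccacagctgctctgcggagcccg
Between the element and the start site lay 70 bases in Pcsk1, 60 bases in Scg2 and 64 bases in Chgb. A match of letters is a description of the sequence and was not tested as a binding site.

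No member was called between the genotypes. The call required an adjusted p of at most 0.05 and an absolute log2 fold change over 0.5, and 0 of 10 members met it in edgeR's quasi-likelihood test, against 4 of 18637 tested genes (0.0215%). DESeq2 also called 0 members and 12 genes in all. The 4 genes, Efr3b, Myo7a, Mrpl48-ps and Gm44675, are named here after their values were seen. The log2 fold changes of the members, POMC-C451Af/f over control, lay between -0.12 and 0.11, that is between 0.92-fold and 1.08-fold. The widest reach of their 95% intervals was from -0.23 to 0.21, or from 0.854-fold to 1.16-fold, so for each member the interval excluded the fold change that a call required. The adjusted p of the members in edgeR was between 0.878 and 0.999.

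Without adjustment, 1 of 10 members had a p under 0.05 in edgeR, which was Pcsk1n, against 5.1% of all tested genes. The same test gave 0 members without control replicate 1, without control replicate 3, or without POMC-C451Af/f replicate 3 or 4, where the share of all tested genes was between 3.37% and 4.34%. It gave 3 members without POMC-C451Af/f replicate 2 (Pcsk2, Pcsk1n and Cpe), against 9.38% of all genes tested there. It gave 3 without control replicate 2 (Pcsk1n, Scg5 and Pam), against 6.29%, and 2 without control replicate 4 (Pcsk1n and Scg5), against 5.88%. DESeq2 gave 2, Pcsk2 and Pcsk1n, against 2.82% of 32164 genes. That fit had no filter on low counts, so its share is over a wider set of genes than in edgeR. The genotype groups overlapped in all 10 members, so 0 of 10 were separate, against 2.81% of all tested genes. With a pool left out, groups of 3 and 4 pools separated more often in all genes, in 4.57% to 8.67% of them. Separate groups were then found in Pcsk2 and Cpe without POMC-C451Af/f replicate 2 (8.67% of all tested genes), in Scg5 without POMC-C451Af/f replicate 1 (5.59%), in Chgb without control replicate 1 (4.69%), in Pam without control replicate 2 (6.59%) and in Pcsk1n without control replicate 4 (6.62%).

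**Figure D2:**
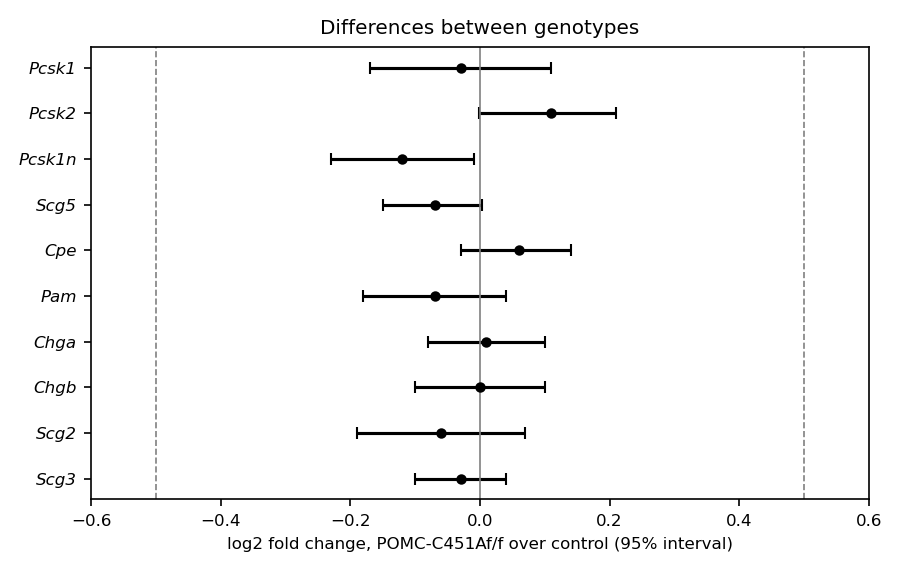
Log2 fold change of each member, POMC-C451Af/f over control, as a point with its 95% interval from edgeR, and dashed lines at the size that a call required. All intervals lie between -0.23 and 0.21, well inside the dashed lines.

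The convertases cut prohormones, Pcsk1 mostly early in the route and Pcsk2 later. Pcsk1 (ENSMUSG00000021587.6, chromosome 13 from 75089826 to 75134861 on GRCm38) was measured at 90.2, 89.1, 76.4 and 87.9 CPM in POMC-C451Af/f replicates 1 to 4 and at 91.8, 79.4, 87.0 and 93.4 CPM in control replicates 1 to 4. POMC-C451Af/f replicate 3 and control replicate 2 were low, and the other 6 pools lay close together in both genotypes. The means were 85.9 ± 6.39 and 87.9 ± 6.30 CPM (SD, n = 4 pools each), a difference smaller than the spread between pools (log2 fold change -0.03, two-sided exact permutation p = 0.571). Its sign turned without POMC-C451Af/f replicate 3, where the log2 fold change was 0.02.

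Pcsk2 (ENSMUSG00000027419.10, chromosome 2 from 143546156 to 143816285) was measured at 278, 256, 306 and 292 CPM in POMC-C451Af/f pools and at 260, 268, 266 and 258 CPM in control pools. The control pools were tight at 263 ± 4.54 CPM, whereas the POMC-C451Af/f pools at 283 ± 21.3 CPM (SD, n = 4 pools each) held the lowest and the highest value of all. POMC-C451Af/f replicates 3 and 4, the highest pools for Pcsk2, were also the highest for the midbrain markers. Its log2 fold change of 0.11 was the highest among the members (95% interval -0.0021 to 0.21, edgeR unadjusted p = 0.0539, adjusted p = 0.878). It was 0.02 without both of these pools and 0.02 when control replicate 1 was left out as well. Leaving out the highest pools of Pcsk2 lowers this value whatever the cause, which was not tested.

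Pcsk1n and Scg5 are the small proteins that accompany the convertases. Pcsk1n encodes proSAAS, an inhibitor of the Pcsk1 enzyme, and Scg5 encodes a chaperone that escorts the Pcsk2 enzyme and holds it inactive. Pcsk1n (ENSMUSG00000039278.11, chromosome X from 7919822 to 7924410) was measured at 968, 960, 884 and 850 CPM in POMC-C451Af/f replicates 1 to 4 and at 1061, 982, 996 and 941 CPM in control replicates 1 to 4. Control replicate 4 lay below POMC-C451Af/f replicates 1 and 2, so the groups overlapped by this pool. The means were 916 ± 58.0 and 995 ± 49.7 CPM (SD, n = 4 pools each), with a log2 fold change of -0.12 (95% interval -0.23 to -0.01, edgeR unadjusted p = 0.0317, adjusted p = 0.878). The exact permutation test over the 70 assignments of pools gave p = 0.114, where 0.0286 is the smallest p it can give. The lowest values were in the pools highest in midbrain markers and the highest value was in the pool highest in pituitary markers. Without those 3 pools the log2 fold change was -0.01. They were the extreme pools of Pcsk1n itself, so leaving them out shrinks the difference whatever its cause, which was not tested.

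Scg5 (ENSMUSG00000023236.8, chromosome 2 from 113776362 to 113829121) was measured at 205, 203, 198 and 199 CPM in POMC-C451Af/f pools and at 221, 205, 217 and 204 CPM in control pools. Control replicates 1 and 3 were high, and control replicates 2 and 4 lay at the level of POMC-C451Af/f replicate 1. The log2 fold change was -0.07 (95% interval -0.15 to 0.0038, edgeR unadjusted p = 0.0604, adjusted p = 0.878). At 201 ± 3.17 CPM against 212 ± 8.51 CPM (SD, n = 4 pools each), the spread was wider in controls.

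Convertase and partner were also set against each other within each pool, as ratios of CPM that serve as a description only. Pcsk1 over Pcsk1n was 0.0940 ± 0.00703 in POMC-C451Af/f pools and 0.0885 ± 0.00771 in control pools (SD, n = 4 pools each), with overlapping ranges. Pcsk2 over Scg5 was 1.41 ± 0.123 in POMC-C451Af/f pools and 1.24 ± 0.0559 in control pools, and these ranges overlapped as well, because POMC-C451Af/f replicate 2 at 1.26 lay below control replicate 2 at 1.31 and control replicate 4 at 1.27. Pcsk2 over Pcsk1 was highest in POMC-C451Af/f replicate 3 at 4.0 and otherwise between 2.77 and 3.38.

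Cpe and Pam finish the peptides. Cpe encodes carboxypeptidase E, which removes the basic residues left after cleavage, and Pam encodes the enzyme that amidates the C-terminal end. Cpe (ENSMUSG00000037852.9, chromosome 8 from 64592542 to 64693054) was measured at 1992, 1853, 2052 and 1962 CPM in POMC-C451Af/f replicates 1 to 4 and at 1784, 1962, 1925 and 1885 CPM in control replicates 1 to 4. Control replicate 1 and POMC-C451Af/f replicate 2 were the lowest pools, and the groups overlapped. Cpe means were 1965 ± 83.5 and 1889 ± 76.7 CPM (SD, n = 4 pools each), with a log2 fold change of 0.06 (95% interval -0.03 to 0.14, edgeR adjusted p = 0.878). With a single pool left out, it ran from 0.03 (POMC-C451Af/f replicate 3 or control replicate 1) to 0.08 (POMC-C451Af/f replicate 2).

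Pam (ENSMUSG00000026335.17, chromosome 1 from 97795114 to 98095646) was measured at 368, 369, 328 and 355 CPM in POMC-C451Af/f pools and at 387, 339, 379 and 385 CPM in control pools. The low pools, POMC-C451Af/f replicate 3 and control replicate 2, were those that were low in Pcsk1. Pam means were 355 ± 18.9 and 373 ± 22.7 CPM (SD, n = 4 pools each), with a log2 fold change of -0.07 (95% interval -0.18 to 0.04, edgeR adjusted p = 0.878). This value was -0.03 without POMC-C451Af/f replicate 3 and -0.11 without control replicate 2.

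**Figure D3:**
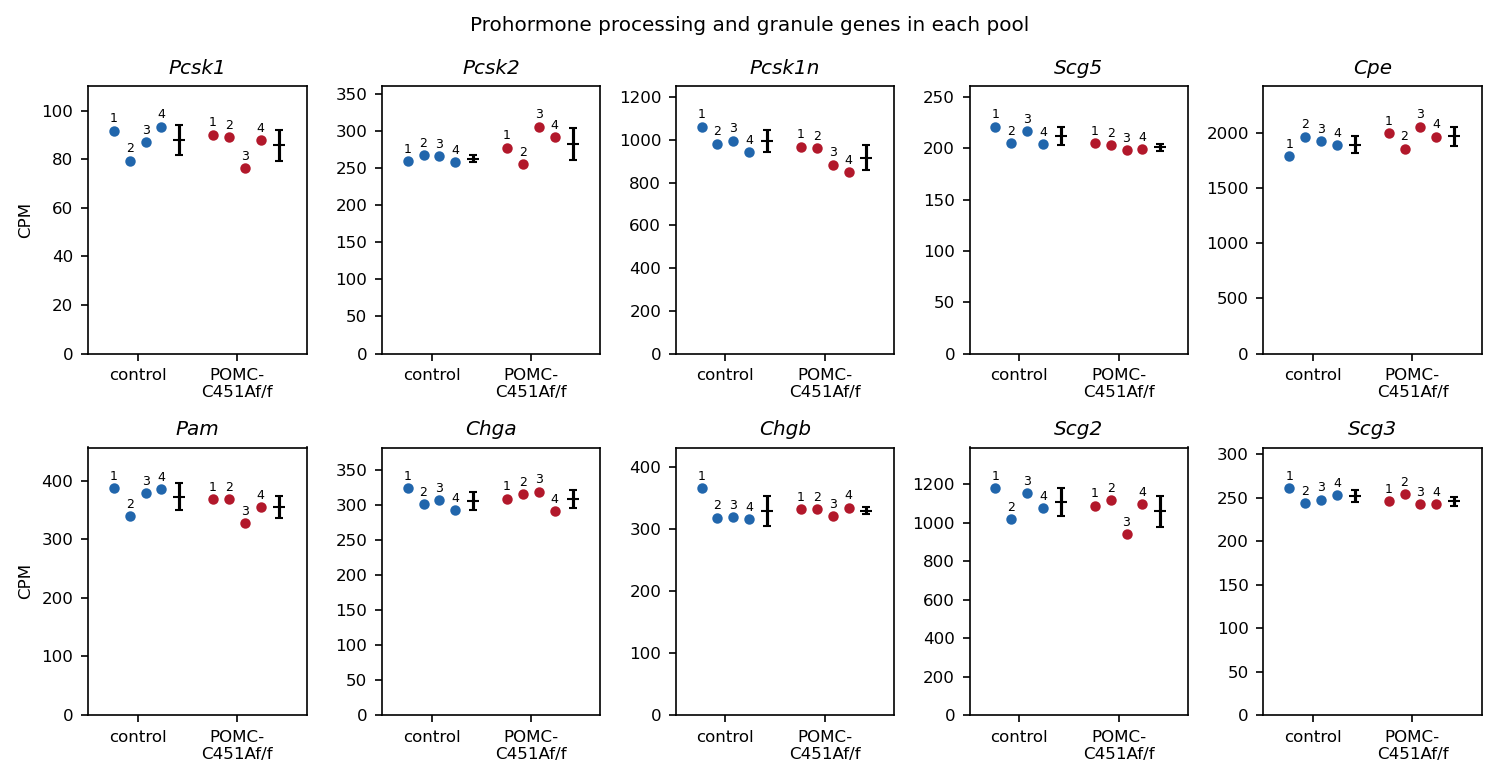
CPM of each member in every pool, control in blue and POMC-C451Af/f in red, numbered by replicate, with the mean and SD of each group (n = 4 pools) in black and axes that start at 0. The groups overlap in all 10 genes, and the ratio of the highest to the lowest pool is between 1.07 (Scg3) and 1.25 (Pcsk1n and Scg2).

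The granins are the acidic proteins of the granule core, and several are cut into peptides themselves. Scg2 (ENSMUSG00000050711.8, chromosome 1 from 79434669 to 79440120), the precursor of secretoneurin, was measured at 1090, 1118, 942 and 1096 CPM in POMC-C451Af/f pools and at 1180, 1018, 1156 and 1076 CPM in control pools. POMC-C451Af/f replicate 3 was again the lowest pool, and the remaining POMC-C451Af/f pools lay within the range of the controls. The log2 fold change was -0.06 (95% interval -0.19 to 0.07, edgeR adjusted p = 0.895), and it was -0.0091 without that pool.

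Chgb (ENSMUSG00000027350.9, chromosome 2 from 132781278 to 132795079), which encodes chromogranin B, was measured at 331, 331, 320 and 334 CPM in POMC-C451Af/f pools and at 365, 318, 319 and 315 CPM in control pools. A single pool, control replicate 1, decided the spread of the controls at 329 ± 23.9 CPM, against 329 ± 6.07 CPM in POMC-C451Af/f pools (SD, n = 4 pools each). Its log2 fold change was -0.00036 with all pools and 0.05 without control replicate 1, the pool with the high pituitary markers. Hormone cells of the pituitary also store granins, and the part of pituitary tissue in this value was not tested beyond leaving out the pool.

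Chga and Scg3 varied little. Chga (ENSMUSG00000021194.7, chromosome 12 from 102554969 to 102565028), the gene of chromogranin A, lay between 291 and 319 CPM in POMC-C451Af/f pools and between 293 and 324 CPM in control pools, with a log2 fold change of 0.01 (95% interval -0.08 to 0.10, edgeR adjusted p = 0.976). Its sign turned without POMC-C451Af/f replicate 2 (-0.0022) or 3 (-0.0054) and without control replicate 4 (-0.0099). Scg3 (ENSMUSG00000032181.8, chromosome 9 from 75643189 to 75684056), whose product tethers granin aggregates to the granule membrane, lay between 243 and 254 CPM in POMC-C451Af/f pools and between 244 and 261 CPM in control pools. Its log2 fold change was -0.03 (95% interval -0.10 to 0.04, edgeR adjusted p = 0.901), and with a ratio of 1.07 between its extreme pools it was among the steadiest members. The log2 fold change of Scg3 was -0.05 without POMC-C451Af/f replicate 2 and -0.01 without control replicate 1.

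Across the members, 7 were lower and 3 higher in POMC-C451Af/f pools, with a median log2 fold change of -0.031 against 0.000854 over all tested genes. This split was the same with the size factors of DESeq2 and with total counts. The split changed with the pools used. It was 5 lower and 5 higher without POMC-C451Af/f replicates 3 and 4, and 3 lower and 7 higher when control replicate 1 was left out as well. In that last fit the log2 fold changes lay between -0.03 and 0.06. These pools were also the lowest or the highest for many members, so leaving them out shrinks such differences whatever their cause. The cause was not tested. The median absolute log2 fold change of the members was 0.059, against 0.0601 over all tested genes and 0.032 over the 2756 tested genes at least as abundant as the least abundant member. The biological coefficient of variation between pools was between 4.62% (Scg3) and 7.17% (Pcsk1), with a median of 5.92% for the members and 5.19% for those 2756 genes. The members thus varied slightly more than those genes. Below the trend fitted at their abundance lay 8 members, but the share of all genes below it was not computed.

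Single pools were extreme in several members. Control replicate 1 was the highest pool for 7 of the 10 members and the lowest for Cpe. POMC-C451Af/f replicate 3 was the lowest for 5 members and the highest for Pcsk2 and Cpe. The mean z-score of the members (deviation from the mean of the 8 pools in SD units of each gene) was 0.93 in control replicate 1 and lowest in control replicate 2 at -0.49 and POMC-C451Af/f replicate 3 at -0.48. The summed level of 7 neuron markers moved the other way, with its lowest value of 2837 CPM in control replicate 1 and its highest of 3242 CPM in POMC-C451Af/f replicate 3, as did that of 5 oligodendrocyte markers with 4480 and 6495 CPM. The hypothalamus markers moved with most members, with their highest sum in control replicate 1 and their lowest in POMC-C451Af/f replicate 3. How much of a hypothalamus each pool held beside neighbouring tissue was not tested.

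**Figure D4:**
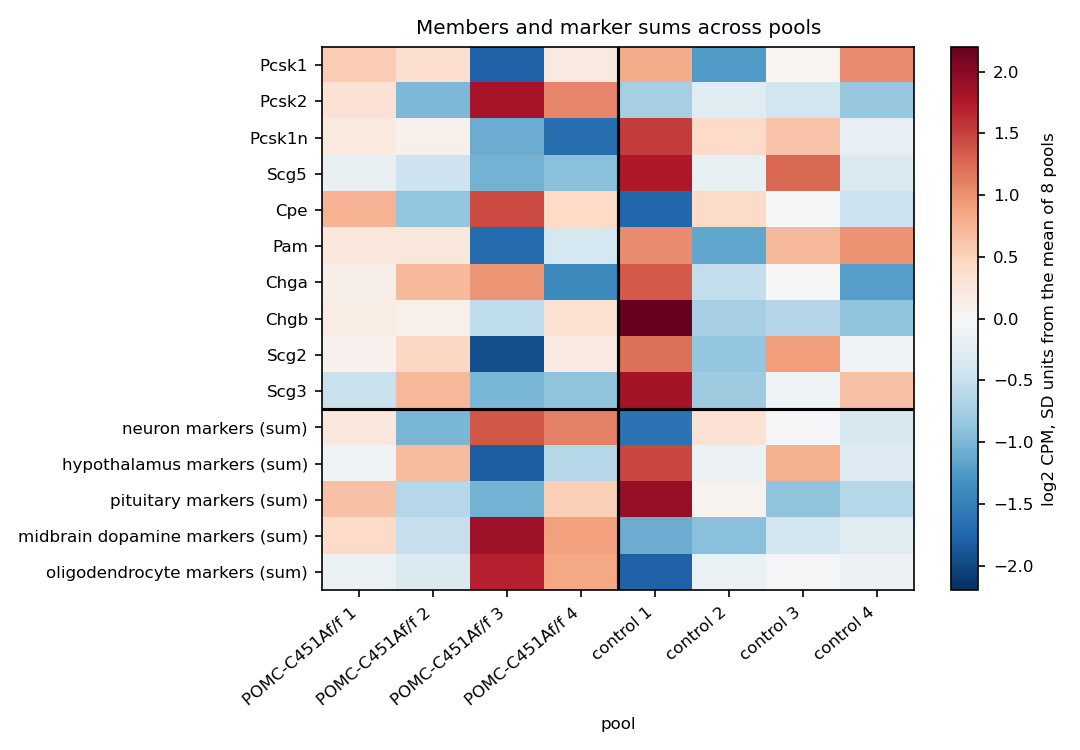
Deviation of each member and of each marker sum from its mean over the 8 pools, on the log2 CPM scale in SD units, with red above and blue below the mean and a line between POMC-C451Af/f and control pools. Control replicate 1 is red for most members and blue for Pcsk2 and Cpe, and POMC-C451Af/f replicate 3 is blue for most members and red for Pcsk2, Cpe and Chga.

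Pcsk2 and Cpe had a negative r with each of the other 8 members over all pools, but apart from Scg3 these relations were weak or became weaker without the outlying pools. Without the 2 farthest pools of each pair, r was -0.71 for Pcsk2 and -0.91 for Cpe with Scg3, and it ran from -0.49 to 0.21 with the other members. Leaving out the extreme pools narrows the range of values, which by itself tends to bring r closer to none. Pcsk2 and Pcsk1n went from r = -0.74 (rho = -0.40) to -0.04, and to 0.43 when control replicate 1 was left out beforehand. Against Chga, r was -0.03 for Pcsk2 and -0.24 for Cpe with all pools. Against Chgb, Pcsk2 had r = -0.16 and rho = 0.19, and Cpe had r = -0.62 and rho = -0.07, with r = 0.21 without the 2 pools farthest from the median of Cpe. Of the 45 pairs of members, 27 had a positive and 18 a negative Pearson's r of log2 CPM over the 8 pools, with a median of 0.40. Cpe and Scg3 were the most opposed pair, with r = -0.95 (two-sided exact permutation p = 0.000322, adjusted over 45 pairs 0.0145) and Spearman's rho = -0.93 (permutation p = 0.00223, adjusted 0.0411), and r was -0.91 without the 2 pools farthest from the median of Cpe. Pcsk1 and Pam varied together with r = 0.93 (permutation p = 0.00188, adjusted 0.0424) and rho = 0.81 (permutation p = 0.0218, adjusted 0.14). Without the 2 pools farthest from the median of Pcsk1, POMC-C451Af/f replicate 3 and control replicate 2, r was 0.60. The narrower range tends to lower r by itself, so the part of these pools in the relation was not tested. These 2 pairs passed by Pearson's r and 5 pairs passed by Spearman's rho.

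Pcsk2 was closest to Cpe, as Pcsk1 was to Pam. Pcsk2 and Cpe had r = 0.82 (permutation p = 0.011, adjusted 0.0993) and rho = 0.90 (permutation p = 0.00456, adjusted 0.0411), and r was 0.81 without the 2 pools farthest from the median of Pcsk2. Pcsk1n and Scg5, the inhibitors, had r = 0.87 (permutation p = 0.00838, adjusted 0.0943) and rho = 0.93 (permutation p = 0.00223, adjusted 0.0411), and r was 0.79 without the 2 pools farthest from the median of Pcsk1n. A convertase and its own partner were not close, since Pcsk1 and Pcsk1n had r = 0.33 (permutation p = 0.424, adjusted 0.49) with rho = 0.17 (permutation p = 0.703, adjusted 0.846), and Pcsk2 and Scg5 had r = -0.57 (permutation p = 0.118, adjusted 0.205) with rho = -0.38 (permutation p = 0.36, adjusted 0.54). Without the 2 farthest pools r was 0.30 for Pcsk1 with Pcsk1n and -0.07 for Pcsk2 with Scg5. Of the members with the full cAMP element in their promoter window, Pcsk1 and Scg2 had r = 0.81 (permutation p = 0.0168, adjusted 0.114) with rho = 0.43 (permutation p = 0.299, adjusted 0.507), and the sign turned to r = -0.21 without the 2 farthest pools. Chgb had r = 0.56 with Scg2 (permutation p = 0.161, adjusted 0.25; rho = 0.55, permutation p = 0.171, adjusted 0.385) and r = 0.42 with Pcsk1 (permutation p = 0.291, adjusted 0.397; rho = 0.19, permutation p = 0.665, adjusted 0.831), which became 0.40 and 0.19 without the 2 farthest pools. Without control replicate 1, an alternative chosen after seeing the data, no pair passed, and Cpe with Scg3 had r = -0.90 (permutation p = 0.00337, adjusted 0.0804) over 7 pools. Over the same 7 pools r was 0.92 for Pcsk1 with Pam (permutation p = 0.00476, adjusted 0.0804). Pcsk2 with Cpe had r = 0.90 (permutation p = 0.00536, adjusted 0.0804), and Pcsk1n with Scg5 had r = 0.77 (permutation p = 0.0437, adjusted 0.246). The pools share library preparation and scaling to a common total, and these relations were not tested within a genotype.

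**Figure D5:**
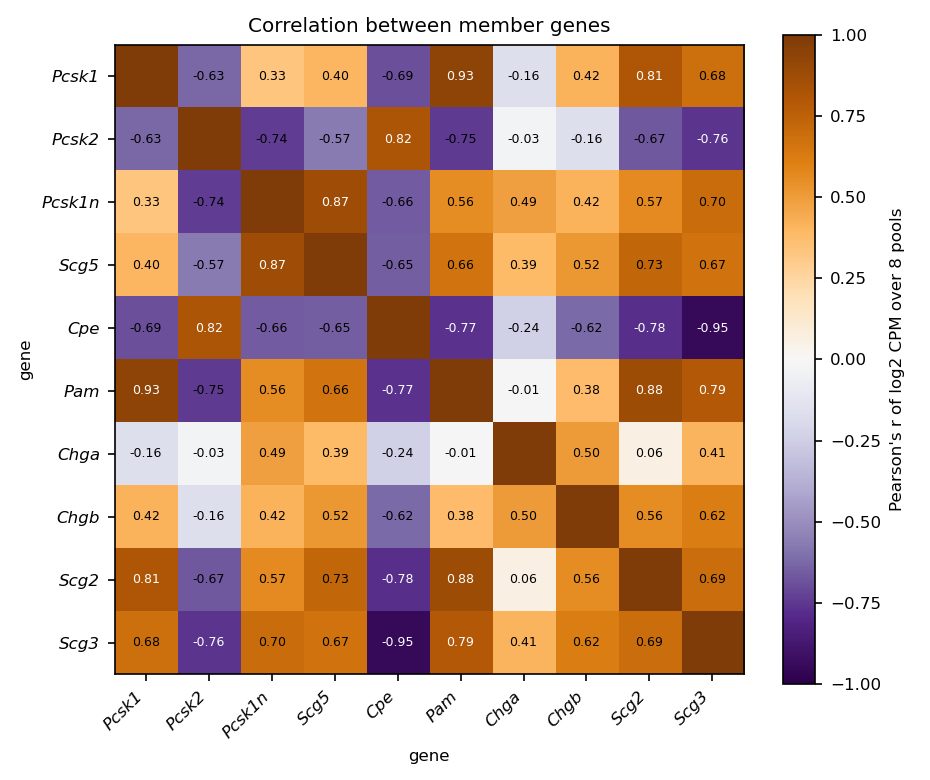
Pearson's r of log2 CPM over the 8 pools for each pair of members, printed in each square. Pcsk2 and Cpe correlate with each other (0.82) and negatively with the other members, down to -0.95 for Cpe with Scg3.

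The genes whose pattern over the 8 pools was most like the mean z-score of the members were Nr5a1 (r = 0.974), Pigh (0.964), Atad5 (0.961), Stx16 (0.960) and CT010496.1 (0.960), which were picked from all tested genes for this likeness and carry no test. Nr5a1, a marker of the ventromedial hypothalamus, was measured at 12.6, 12.2, 8.98 and 10 CPM in POMC-C451Af/f replicates 1 to 4 and at 15.6, 9.86, 12.1 and 11.1 CPM in control replicates 1 to 4. It was thus highest in control replicate 1 and lowest in POMC-C451Af/f replicate 3, as were several members.

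Of 84 further genes of the route, in 6 lists, 82 could be tested and 0 were called in edgeR or in DESeq2. Without adjustment, 8 of the 82 (9.76%) had a p under 0.05 in edgeR, 2 higher and 6 lower in POMC-C451Af/f pools, against 5.1% of all tested genes. DESeq2, with no filter on low counts, gave 9 (2.82% of all genes tested there). The count in edgeR was 5 without control replicate 1 (3.37% of all genes tested there), 4 without POMC-C451Af/f replicate 3 (3.38%), 19 without POMC-C451Af/f replicate 2 (9.38%), 5 without POMC-C451Af/f replicates 3 and 4 (3.04%), 11 when control replicate 1 was left out as well (3.9%), and 15 with no filter on low counts (4.68%). The median log2 fold change of the 82 genes was -0.008.

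Of the substrates of the convertases, 17 of 23 tested genes had a negative log2 fold change, with a median of -0.15. The 4 substrate genes with an unadjusted p under 0.05 in edgeR (17.4%, against 5.1% of all tested genes) were all lower. Pomc, the precursor that the targeted neurons make, was measured at 49.5, 50.2, 35.8 and 30.6 CPM in POMC-C451Af/f replicates 1 to 4 and at 98.9, 49.7, 50.5 and 50.8 CPM in control replicates 1 to 4. Its log2 fold change was -0.59 (edgeR unadjusted p = 0.0319, adjusted p = 0.878) with all pools, -0.28 without control replicate 1, and -0.01 when POMC-C451Af/f replicates 3 and 4 were left out too. The pools left out were the highest and the lowest for Pomc, so this shrinks the difference whatever its cause. Pomc is also abundant in the pituitary, and the pool with the highest value was the one high in pituitary markers. Those markers were next highest in POMC-C451Af/f replicates 1 (227 CPM) and 4 (192 CPM), where Pomc was at 49.5 and 30.6 CPM. Control replicates 3 and 4, at 24.4 and 35.3 CPM of these markers, held 50.5 and 50.8 CPM of Pomc. The part of pituitary tissue in the Pomc values was not tested.

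Trh was measured at 76.3 ± 7.93 CPM in POMC-C451Af/f pools and 89.7 ± 3.26 CPM in control pools (SD, n = 4 pools each), and Tac2, the precursor of neurokinin B, at 26.5 ± 2.32 and 30.5 ± 0.941 CPM. In both genes every POMC-C451Af/f pool lay below every control pool (exact permutation p = 0.0286, the smallest possible), with an adjusted p of 0.878 in edgeR, and no other substrate gene had separate groups (8.7% of the list, against 2.81% of all tested genes). Gal was measured at 30.0 ± 2.85 and 33.2 ± 0.906 CPM, and its groups overlapped. All 9 hypothalamus markers had a negative log2 fold change as well, but 6 of them are substrates themselves, so the lists are not independent. The transcription factors Nkx2-1, Sim1 and Otp, the markers outside the substrate list, had log2 fold changes of -0.18, -0.03 and -0.21, with overlapping groups. The part of tissue makeup in these values was not tested.

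Among the other convertases, 1 of 7 genes (14.3%) had an unadjusted p under 0.05 in edgeR, against 5.1% of all tested genes. It was Pcsk6, at 26.2 ± 2.0 CPM in POMC-C451Af/f pools and 23.8 ± 0.975 CPM in control pools (SD, n = 4 pools each). Its log2 fold change was 0.14 (edgeR adjusted p = 0.878). Among the other peptide enzymes, 2 of 15 (13.3%) had such a p. They were Qpct, which forms N-terminal pyroglutamate, at 28.9 ± 1.26 and 32.0 ± 2.75 CPM, and the peptidase Thop1 at 39.5 ± 1.33 and 42.5 ± 1.01 CPM. Among genes of granule biogenesis and cargo, 1 of 14 (7.14%) did, the vesicular monoamine transporter Slc18a2, at 57.3 ± 7.84 and 46.0 ± 7.44 CPM. Slc18a2 is also a gene of dopamine neurons, and its highest pool was POMC-C451Af/f replicate 3 at 67.4 CPM, the pool highest in midbrain markers.

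None of 18 genes of granule transport and release and none of 5 regulators of granule genes had a p under 0.05 in edgeR. Of the transport genes, 1 had separate groups, Sytl5, named after its values were seen, at 0.403 to 0.494 CPM in POMC-C451Af/f pools and 0.307 to 0.347 CPM in control pools (exact permutation p = 0.0286, the smallest possible). Its log2 fold change was 0.40 (95% interval -0.07 to 0.86, edgeR unadjusted p = 0.121), from 13 to 20 counts per pool. With Trh and Tac2, 3 of the 82 further genes (3.66%) had separate groups, against 2.81% of all tested genes. The most abundant transport genes per kb were Rab3a, at 495 ± 20 CPM in POMC-C451Af/f pools and 502 ± 11.9 CPM in control pools, and Vamp2, at 798 ± 19.5 and 802 ± 20.3 CPM (SD, n = 4 pools each). Of the regulators, Creb1, which binds the cAMP response element, was at 46.1 ± 3.30 and 44.9 ± 4.92 CPM, and Creb3l2 was at 31.0 ± 0.417 and 31.6 ± 2.64 CPM. The summed level of the transport list was lowest in control replicate 1 at 6136 CPM and in POMC-C451Af/f replicate 2 at 6171 CPM, the pools that were also lowest for Cpe.

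Sequence shared with other genes was small for the members. At an identity of at least 90%, the longest stretch that a transcript of a member shared with a transcript of another gene was 402 bases, between Pcsk2 and Ccdc138. Pam and Pcsk1n shared at most 150 and 135 bases, and the other 7 members had no such match. The library kit kept the strand of the RNA, and Pcsk2os1, annotated antisense to Pcsk2, had between 62 and 127 counts per pool, against at least 9527 for Pcsk2.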

How the data were processed

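Hypothalamic RNA of 8 pools was analysed. The authors quantified the reads with Salmon 1.10 and deposited estimated counts per gene, not normalized between pools; the submitters' processing notes also name FastQC 0.12.1, R 4.4 and DESeq2 1.40. A deposited table of the authors' own comparison was not used. Estimated counts were rounded, filtered with filterByExpr (minimum count 10), scaled by TMM (factors 0.984 to 1.02) and tested with edgeR 4.0.16 in R 4.3.3, with Benjamini-Hochberg adjustment over 18637 genes. DESeq2 1.42.0 was an alternative. Permutation tests used log2(CPM + 0.5). Gene positions and lengths are from GENCODE M21 on GRCm38, which matched 51424 identifiers and is an earlier build than the authors' GRCm39. Named genes were the members, Esr1, Pomc, pathway genes with an unadjusted p under 0.05 (else the 2 most abundant), the most abundant marker of each list, markers without counts and the 5 genes most like the members. A list of cell type markers is reported only in part here. Members and lists were chosen with earlier results of these data known. The fit was tested on simulated data.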

Additional observations from a re-analysis of the deposited data

Results flagged for a closer look

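In 38 groups of 4 pools, the CPM of the 10 members, of Esr1 and of Pomc, the summed CPM of the members and those of 6 marker lists were searched for a pool far from the other 3 of its genotype. Were the groups independent, chance would give about 1 in 20, or 1.9 groups, and 7 were found. They are not independent, since the same pools and correlated genes recur, so the count of 7 is no test against chance. POMC-C451Af/f replicate 3 was low in Pcsk1, at 76.4 CPM against 87.9 to 90.2 CPM in the other pools of its genotype, and in Scg2, at 942 CPM against 1090 to 1118 CPM. Control replicate 2 was low in Pam, at 339 CPM against 379 to 387 CPM. Control replicate 1 was high in Chgb, at 365 CPM against 315 to 319 CPM, and in Pomc, at 98.9 CPM against 49.7 to 50.8 CPM. The same pool was high in the summed pituitary markers, at 1458 CPM against 24.4 to 98.0 CPM, and low in the summed oligodendrocyte markers, at 4480 CPM against 5332 to 5385 CPM. The causes were not tested.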

How the results depend on the processing

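Members called, and further genes of the route called, numbered 0 under each of the 18 alternative fits and at FDR 0.05 alone. Genes called in all numbered 12 with DESeq2, 2 with at least 10 counts in every pool, 2 with the replicate block, 7 without POMC-C451Af/f pools 3 and 4, and 10 when control pool 1 was left out as well, against 4. The replicate numbers did not pair the pools (correlation of deviations 0.141, -0.179, -0.109 and 0.243), and the block called 0 members and gave 13 further genes with an unadjusted p under 0.05 (6.06% of all genes), against 8. Members with an unadjusted p under 0.05 numbered 2 with DESeq2 (2.82% of all genes tested there), total counts (5.02%), no filter (4.68%) or robust empirical Bayes (4.93%). They numbered 0 without POMC-C451Af/f pools 3 and 4 (3.04%) and 0 without control pool 1 too (3.9%). With each pool left out in turn they numbered 0 to 3 (3.37% to 9.38% of all genes). Separate groups were then found in 0 to 2 members (4.57% to 8.67% of all genes). The rank per kb was kept by 3 members with the median transcript and 6 with the longest. Pairs past the threshold numbered 0 without control replicate 1, 4 with total counts and 5 with Spearman's rho, all chosen after seeing the data, against 2. The log2 fold change of Chgb turned to 0.0021 with the replicate block, that of Pcsk1 to 0.03 and of Chgb to 0.0091 without POMC-C451Af/f pools 3 and 4. Without these and control pool 1, the values were 0.05 for Pcsk1, -0.00018 for Cpe, 0.0032 for Pam, 0.06 for Chgb, 0.03 for Scg2 and 0.0082 for Scg3. With each pool left out in turn they ran from -0.08 to 0.02 for Pcsk1, -0.0099 to 0.04 for Chga and -0.02 to 0.05 for Chgb. The cause was not tested. Each member had at least 2722 counts in every pool, so the number of pools limited precision more than depth.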

Other observations

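Markers of other cell types leaned to either side. All 8 midbrain markers were higher in POMC-C451Af/f pools, and 7 had an unadjusted p under 0.05 in edgeR (87.5%, against 5.1% of all tested genes). Th, the most abundant per kb, was at 69.9 ± 15.8 CPM against 47.8 ± 4.29 CPM (SD, n = 4 pools each, edgeR adjusted p = 0.878). Every POMC-C451Af/f pool lay above every control pool for Th (exact permutation p = 0.0286, the smallest possible). No other midbrain marker had separate groups (12.5% of the list, against 2.81% of all tested genes). All 5 oligodendrocyte markers were higher, 3 with an unadjusted p under 0.05 in edgeR (60%, against 5.1% of all tested genes). The most abundant per kb, Mbp, was at 2824 ± 290.0 and 2527 ± 228 CPM. All 5 endothelial markers were higher, 1 with an unadjusted p under 0.05 in edgeR (20%, against 5.1%), with Cldn5 at 34.6 ± 3.57 and 31.5 ± 1.68 CPM. The microglia genes Cx3cr1 at 32.4 ± 1.07 and 29.6 ± 0.673 CPM, with separate groups, and P2ry12 at 17.7 ± 1.06 and 16.1 ± 0.880 CPM, with overlapping groups, had unadjusted p of 0.00468 and 0.0499 in edgeR (adjusted p = 0.878 for both) and are named after their values were seen. Of 5 astrocyte markers, 2 were higher and 3 lower, with Slc1a3 at 596 ± 21.3 and 626 ± 21.8 CPM. The 2 with an unadjusted p under 0.05 in edgeR (40% of the list, against 5.1% of all tested genes) are named after their values were seen. They ran in opposite directions, each with separate groups (40% of the list, against 2.81% of all tested genes). Aqp4 was higher at 147 ± 10.8 and 120 ± 3.0 CPM and Aldh1l1 lower at 63.6 ± 1.80 and 67.5 ± 1.06 CPM, with unadjusted p of 0.000146 and 0.0301 in edgeR (adjusted p = 0.198 and 0.878; exact permutation p = 0.0286 for both). Of 7 neuron markers, 6 were higher and none had a p under 0.05, with Tubb3 at 462 ± 27.0 and 441 ± 19.1 CPM. Of 5 choroid plexus markers, 3 were higher and none had a p under 0.05, with Clic6 at 17.9 ± 0.769 and 18.9 ± 1.89 CPM. All 6 tested pituitary markers were lower, none with a p under 0.05, and Prl reached 1013 CPM in control replicate 1, whereas the other pools ran from 7.84 to 163 CPM. Lhb reached 1.78 CPM and Ghrhr 0.894 CPM in that pool, and each had 0 counts in at least 1 other. None of these markers was called in the edgeR or DESeq2 fits run here, and the lists were not tested as sets. The paper's own DESeq2 comparison lists Th as differentially expressed.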
